A study of Ovis aries with 32 samples.

Results

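ZFP36, also called tristetraprolin, is an RNA-binding protein that hastens the decay of short-lived mRNAs, and its own mRNA was followed here in the middle cerebral artery (MCA) of sheep. Its probes were taken by the accession each probe carries, by the name in the array file, or by finding the probe whose group means equal those that the study's supplementary table of genes lists for ZFP36. This gave 1 gene of the 2329 symbols that could be named on the array, with 2 of the 15008 probes. Both probes were named by accession, with the file name TTP, and the group means of that table point to the first of them alone, which is called probe A below; the other is probe B.

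ZFP36 binds AU-rich elements in the tails of mRNAs for cytokines, growth factors and early response genes, and brings in enzymes that shorten the poly(A) tail, after which the message is degraded. The gene is itself an early response gene, transcribed soon after many stimuli, and its mRNA is unstable because the protein also acts on its own message. Kinases of the p38 and MK2 pathway phosphorylate the protein, which makes it more abundant but less active, so mRNA and decay activity need not run in parallel.

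The study exposed MCA segments to phenylephrine (PHE), an agonist of alpha1-adrenergic receptors, at 10 µM for 30 minutes, and hybridized labelled cRNA, copied from the poly(A) RNA of each sample by priming at the tail, to a single-colour Agilent sheep array. There were 32 arrays in 8 groups of 4: untreated and PHE-treated segments at each of 4 ages, with no genetic change in any group. The premature fetus was at 96 days of gestation in both the labels and the methods. The near-term fetus was at 146 days in the labels and 140 days in the methods, the newborn lamb at 12 hours in the labels and 5 days in the methods, and the adult at 2 years in the labels and 18 to 24 months in the methods. The methods give 4 animals for an experiment, with the artery of each cut into segments and 1 fetus taken from twins. They do not say which array came from which animal, or whether untreated and treated segments of an age came from the same animals, so each p below measures the spread between samples only. Nor do they say how long untreated segments stayed in the tissue bath, so whether bath time was matched between treatments is not known. Over 10894 probes, the deviations of untreated and PHE arrays of the same replicate number were correlated at 0.414 to 0.486 in the premature fetus and 0.465 to 0.528 in the newborn, against -0.054 to 0.570 near term and -0.118 to 0.040 in the adult. The number of arrays limits the precision.

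Both ZFP36 probes gave a signal well above background on 32 of 32 arrays, with 0 spots saturated. The processed intensity ran from 24.3 to 179149 for probe A and from 347 to 216746 for probe B. Levels below are log2 of the processed intensity over the 75th percentile of the array, so that a value of 0 is that percentile itself. That percentile was 639 to 985.4 on the premature arrays and 646.8 to 863.8 on the newborn arrays. It differed by treatment near term, with 124.3 to 1366 untreated (median 498) and 369.1 to 1669 with PHE (median 1359). In the adult it differed the other way, with 1014 to 1709 untreated (median 1073) and 821.2 to 1027 with PHE (median 898.3). Levels of the probes are not set against each other, because probes differ in how well they hybridize; only their changes are compared.

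In the premature fetus, ZFP36 probe B had levels of 1.40, 1.16, 1.36 and 1.44 on the untreated arrays and 4.54, 4.68, 4.85 and 3.91 on the PHE arrays. In the near-term fetus the levels were 2.06, 1.47, 2.14 and 1.48 untreated, and 5.37, 6.25, 6.80 and 7.02 with PHE. In the newborn lamb they were 1.91, 1.41, 2.08 and 2.48 untreated, and 2.93, 4.20, 3.76 and 4.05 with PHE. Treated arrays of these 3 ages all lay above the untreated arrays of their age, and the nearest approach was in the newborn, where PHE replicate 1 was low among the treated arrays. In the adult, probe B had levels of 2.61, 2.32, 2.43 and 2.72 untreated, and 6.47, 6.39, 6.77 and 6.03 with PHE. The adult arrays were the tightest of the treated groups, and again the treatments did not overlap. The group means with their SD over 4 arrays were 1.34 ± 0.12 and 4.49 ± 0.41 in the premature fetus, 1.79 ± 0.36 and 6.36 ± 0.74 near term, 1.97 ± 0.45 and 3.74 ± 0.57 in the newborn and 2.52 ± 0.18 and 6.42 ± 0.31 in the adult, untreated first.

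ZFP36 probe A had levels of -3.45, -3.26, -3.54 and -3.06 on the untreated premature arrays, and 3.34, 3.12, 3.64 and 2.46 on the PHE arrays of that age. Near term, the levels were -1.29, -0.79, -1.79 and -2.35 untreated, and 3.99, 5.64, 6.43 and 6.75 with PHE. In the newborn they were -1.37, -2.03, -0.43 and 0.12 untreated, and 1.07, 2.50, 2.14 and 2.43 with PHE. Here too every treated array lay above every untreated array of its age, and replicate 1 was the lowest treated array near term and in the newborn, as with probe B. In the adult, probe A had levels of 0.70, 0.04, 1.81 and 1.04 untreated, and 5.24, 4.87, 5.25 and 4.41 with PHE. The adult groups did not overlap, and the untreated adult arrays were higher than all untreated arrays of the other ages save for replicate 2, which lay below the highest newborn array. The means ± SD over 4 arrays were -3.33 ± 0.21 and 3.14 ± 0.50 in the premature fetus, -1.56 ± 0.67 and 5.70 ± 1.23 near term, -0.93 ± 0.96 and 2.03 ± 0.66 in the newborn, and 0.90 ± 0.74 and 4.94 ± 0.39 in the adult.

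**Figure D1:**
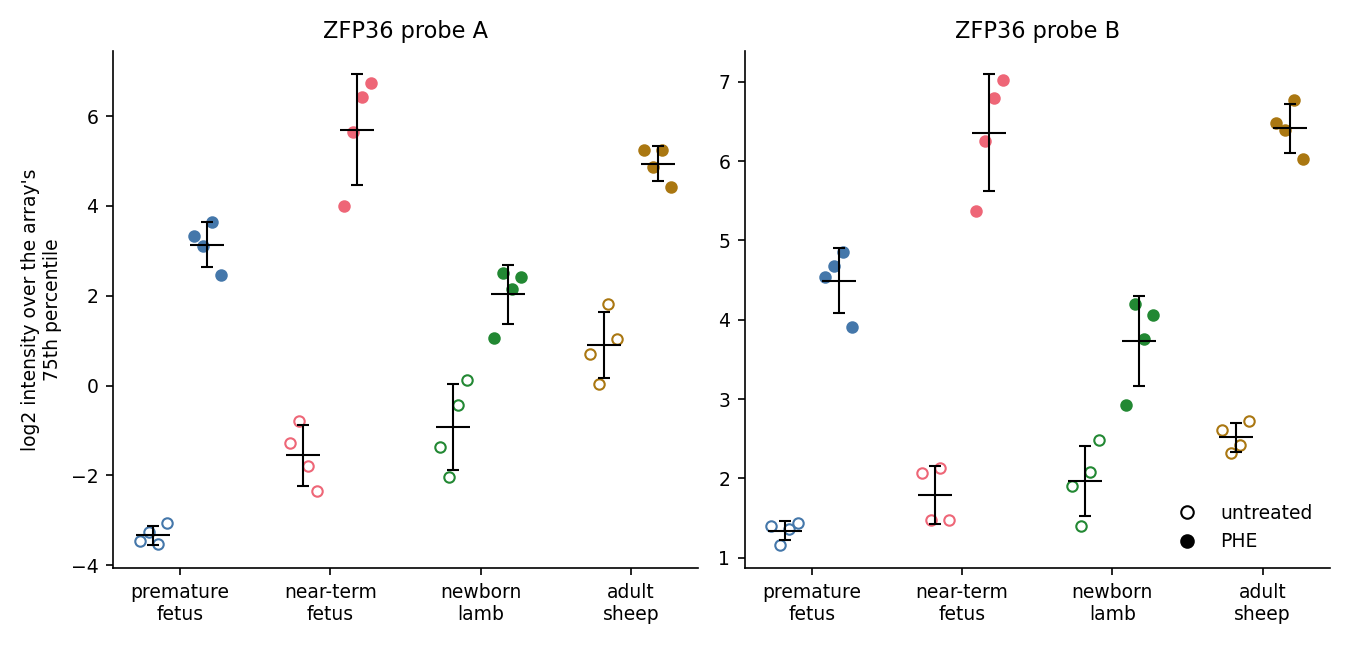
Level of ZFP36 (log2 of intensity over the array's 75th percentile) on each of the 32 arrays, with a separate axis for each probe; points are arrays, open untreated and filled PHE, and bars are group means ± SD over 4 arrays. At each of the 4 ages the PHE arrays lie above the untreated arrays on both probes.

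ZFP36 mRNA was thus higher after PHE at every age and on both probes, and by its fitted size the rise was steepest in the near-term fetus and shallowest in the newborn lamb. In the premature fetus, ZFP36 rose 8.90-fold on probe B (log2 change 3.15, 95% interval 2.52 to 3.79, limma adjusted p = 2.56e-08) and 88.5-fold on probe A (log2 change 6.47, 5.43 to 7.50, adjusted p = 6.25e-10). At that age 17.6% of the 10162 probes tested were called in either direction, where a call is an adjusted p under 0.05 and a change of at least 1.5-fold. Near term it rose 23.7-fold on probe B (log2 change 4.57, 3.94 to 5.20, adjusted p = 3.17e-11) and 153-fold on probe A (log2 change 7.26, 6.22 to 8.29, adjusted p = 4.8e-11), where 35.9% of 9926 probes were called. In the newborn lamb it rose 3.41-fold on probe B (log2 change 1.77, 1.14 to 2.40, adjusted p = 0.000216) and 7.80-fold on probe A (log2 change 2.96, 1.93 to 4.00, adjusted p = 0.000171), where 11.1% of 9797 probes were called. In the adult it rose 14.9-fold on probe B (log2 change 3.90, 3.27 to 4.53, adjusted p = 7e-10) and 16.5-fold on probe A (log2 change 4.04, 3.01 to 5.08, adjusted p = 2.67e-06), where 3.84% of 9583 probes were called. Each of these tests was two-sided, and all 4 treated arrays showed the direction in each case. In such bulk samples, more RNA per cell and more cells that hold it cannot be told apart. With the t-test of the methods and the same adjustment, 3 of these 8 calls were lost: near term on both probes (adjusted p = 0.0703) and in the adult on probe A (adjusted p = 0.0815).

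**Figure D2:**
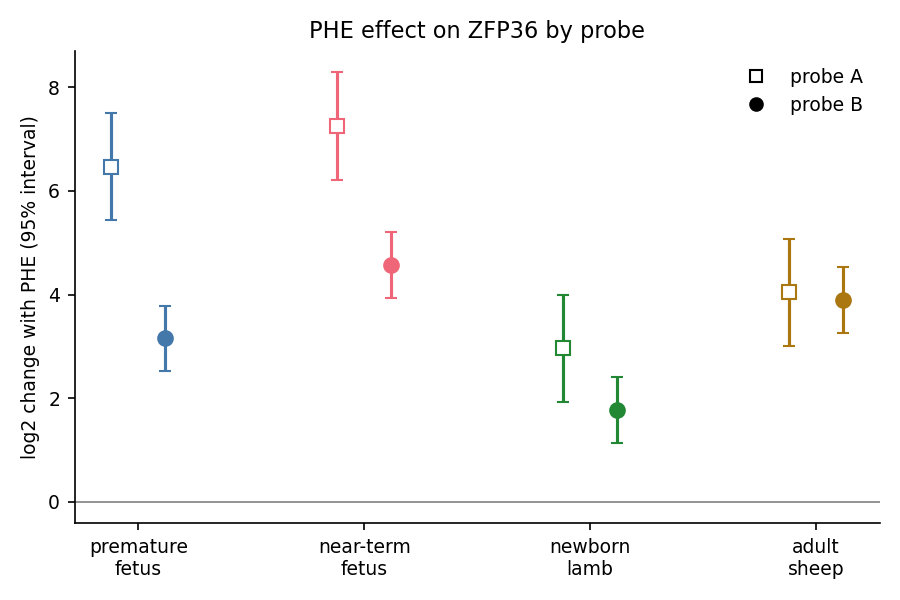
Change of ZFP36 with PHE (log2 scale, points, with 95% intervals from limma) at each age on each probe. The probes give 3.90 and 4.04 in the adult and move apart at the other ages, to 3.15 and 6.47 in the premature fetus.

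The probes of ZFP36 gave the same direction but not the same size of change. On probe A the untreated mean level was -3.33, -1.56, -0.93 and 0.90 in the premature, near-term, newborn and adult groups. Its untreated signal was thus dimmest where the effects of the probes differed most. The part of this dim baseline in the difference, and in the size of the folds on probe A, was not tested. The PHE effect of probe A was larger than that of probe B by 3.31 on the log2 scale in the premature fetus, by 2.69 near term and by 1.20 in the newborn (two-sided exact permutation p = 0.0286 at each, the smallest that 4 arrays against 4 allow, and 0.0381 after adjustment over the 4 ages). That test takes the arrays as unpaired; with arrays of the same replicate number as pairs, all 4 pairs of each of these ages had the larger effect on probe A, and the exact p was 0.125, the smallest that 4 pairs allow (a replicate block, which cannot pass the threshold). In the adult the difference between the effects was 0.15 (exact p = 0.714, adjusted 0.714), which is within the spread of the arrays. These comparisons were chosen after the values were seen. With another background correction (normexp) the premature difference was 1.93 and its exact p was 0.0571. As a description of how closely the probes followed each other, Pearson's r between them was 0.797 over the 32 arrays as deviations from their group means, 0.887 over the 16 untreated arrays and 0.976 over the 16 PHE arrays; both probes read the same labelled sample in the same scan.

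The size of the ZFP36 response differed between ages in some pairs. Between newborn and near-term it was smaller in the newborn on both probes, by a log2 difference of -2.80 on probe B (adjusted p = 0.000416) and -4.29 on probe A (adjusted p = 0.000795), where 10.7% of 10588 probes were called. The adult minus near-term difference was called on probe A alone, at -3.21 (adjusted p = 0.00796), against -0.67 on probe B (adjusted p = 0.336), with 10.6% of 10358 probes called. That call was lost when only the arrays compared were fitted (adjusted p = 0.168) and with the adjusted t-test of the methods (0.277), which also ended the newborn minus near-term calls (0.0782 on probe B and 0.092 on probe A). The adult minus newborn difference was called on probe B alone, at 2.13 (adjusted p = 0.0445), against 1.08 on probe A (adjusted p = 1), with 0.0961% of 10408 probes called. The adult minus newborn call was lost when any of 22 of the 32 arrays was left out (adjusted p from 0.00882 to 0.151 over all 32), and with 7 other settings, quantile normalization and scaling to the median among them. These include the replicate number as a block, as if the segments were paired (adjusted p = 0.13), and this replicate block ended no other call on ZFP36 responses.

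The remaining 3 differences of ZFP36 responses were not called on either probe. Near-term minus premature was 1.42 on probe B (adjusted p = 0.0607) and 0.79 on probe A (adjusted p = 0.572), with 4.48% of 10705 probes called. With 1 array left out at a time, the probe A value ran from 0.44 to 1.36. Newborn minus premature was -1.39 on probe B (adjusted p = 0.759) and -3.51 on probe A (adjusted p = 0.142), with 0.00968% of 10333 probes called. Adult minus premature was 0.74 on probe B (adjusted p = 0.595) and -2.42 on probe A (adjusted p = 0.114), so that the probes differed in sign, with 0.847% of 10622 probes called. These 6 differences share groups with each other. Near-term PHE replicate 1, the lowest array of its group on both probes, is part of the main values here. The near-term means that the study lists matched a single probe for 1101 of 1106 genes without this array. With it, 5 of 1106 matched. Leaving out near-term PHE replicate 1 brought 3 of these values past the threshold: near-term minus premature on probe B at 1.75 (adjusted p = 0.00623), newborn minus premature on probe A at -3.51 (adjusted p = 0.0158) and adult minus premature on probe A at -2.42 (adjusted p = 0.0392). The first was also called without newborn PHE replicate 1 (1.42, adjusted p = 0.0477), and the second without untreated newborn replicate 2 (-3.87, adjusted p = 0.0293).

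Before treatment, ZFP36 was lowest in the premature fetus and highest in the adult. Adult minus premature was 4.23 on probe A (adjusted p = 7.81e-08) and 1.18 on probe B (adjusted p = 0.00183), with 56.4% of 10320 probes called. On probe A the untreated level was also higher near term than in the premature fetus, by 1.77 (adjusted p = 0.00566, 42.4% of 9899 probes called), and higher in the newborn than in the premature fetus, by 2.40 (adjusted p = 0.00207, 11% of 9920 called). The adult was above the near-term fetus by 2.45 on probe A (adjusted p = 0.000302, 43.4% of 9731 called) and above the newborn by 1.83 (adjusted p = 0.00333, 52.2% of 10093 called). Probe B gave the same signs in these 4 comparisons, with differences of 0.45, 0.63, 0.73 and 0.55 and adjusted p from 0.0524 to 0.239, and no call, although adult minus near-term was called on probe B without any of 8 arrays (0.73 to 0.85, adjusted p from 0.0248 to 0.0498). With scaling to the median, adult minus near-term was 1.27 (adjusted p = 0.00597) and adult minus newborn 1.16 (adjusted p = 0.0093) on probe B, both past the threshold, but that scaling also moved the median of all probes, from -0.01 to 0.53 and from -0.05 to 0.56 in these contrasts, which is about the size of the change on ZFP36. Adult minus near-term was also called with normexp correction (1.21, adjusted p = 0.00119), and adult minus newborn with array weights (0.67, adjusted p = 0.0289). On probe A, near-term minus premature was not called with normexp correction (1.36, adjusted p = 0.0574) or quantile normalization (1.53, adjusted p = 0.0564), nor newborn minus premature with normexp (1.30, adjusted p = 0.134). Newborn and near-term were not called apart on either probe, with 46.5% of 9640 probes called. Newborn minus near-term was 0.63 on probe A (adjusted p = 0.310) and 0.18 on probe B (adjusted p = 0.651). Leaving out each array in turn, it ran from 0.28 to 0.99 on probe A and from 0.008 to 0.37 on probe B. ZFP36 thus had its untreated ages spread over more than 4 log2 units on one probe and just over 1 on the other.

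After PHE the order of ages was another: ZFP36 was highest in the near-term fetus and the adult. Near-term minus premature was 2.56 on probe A (adjusted p = 0.000175) and 1.86 on probe B (adjusted p = 2.14e-05), with 44.8% of 10557 probes called. Adult minus premature was 1.81 (adjusted p = 0.0031) and 1.92 (adjusted p = 6.62e-06) on probes A and B, with 58.5% of 10300 called, and the call on probe A was lost with quantile normalization (1.35, adjusted p = 0.0831). The newborn lay below the near-term fetus, at -3.67 on probe A (adjusted p = 1.38e-06) and -2.62 on probe B (adjusted p = 1.22e-07), with 49.3% of 10466 called, and below the adult, for which adult minus newborn was 2.91 (adjusted p = 2.25e-05) and 2.68 (adjusted p = 5.35e-08), with 56.4% of 10086 called. Newborn minus premature was -1.10 on probe A (adjusted p = 0.171) and -0.76 on probe B (adjusted p = 0.116). There 10.5% of 10100 probes were called, with no call on ZFP36. With array weights it was called on probe A (-1.17, adjusted p = 0.00563) and probe B (-0.83, adjusted p = 0.00351). Probe A was also called when only the arrays compared were fitted (adjusted p = 0.0453). Adult minus near-term was -0.76 on probe A (adjusted p = 0.239) and 0.06 on probe B (adjusted p = 0.901), with 37.2% of 10081 called. Without near-term PHE replicate 1, that difference was called on probe A (-1.33, adjusted p = 0.0243) and was -0.27 on probe B, where it was also below 0 without adult PHE replicate 3. On PHE arrays ZFP36 therefore fell into a higher pair of ages and a lower pair, on both probes.

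Over all 8 groups, ZFP36 on probe A ran upward from the untreated premature, near-term, newborn and adult groups to the PHE-treated newborn, premature, adult and near-term groups. Of the 7 steps between neighbours in this order, 2 had groups that did not overlap: untreated premature to untreated near-term (1.77, two-sided exact permutation p = 0.0286) and PHE premature to PHE adult (1.81, exact p = 0.0286). The other steps, from 0.63 to 1.83, were between groups that overlapped (exact p from 0.0571 to 0.314). On probe B the order was the same except that the PHE-treated adult stood just above the PHE-treated near-term fetus. That step (0.06) changed sign with quantile normalization (-0.06), array weights (-0.02), slide as a block (-0.30) and the mean of both probes (-0.35), and the step from untreated near-term to newborn did so with normexp on probe A (-0.06) and with array weights on probe B (-0.11). On probe B in the main fit, 3 of the 7 steps had no overlap: untreated premature to near-term (0.45), untreated adult to PHE newborn (1.22) and PHE premature to PHE near-term (1.86), each with exact p = 0.0286, the smallest possible. The other 4, from 0.06 to 0.76, were between overlapping groups (exact p from 0.0857 to 0.886). The lowest treated group thus stood next to the highest untreated group on both probes, and was clear of it on probe B only.

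Slides and scan days run along with the ages. The near-term and adult arrays were scanned on day 1 and the premature and newborn arrays on day 2, so a difference between ages scanned on different days cannot be told apart from the day, and the higher and lower pair of PHE-treated levels are also the days. The premature arrays shared a slide, and so did the newborn arrays, so their PHE effects on ZFP36 are within-slide values as they stand. On slide 1, with 1 untreated and 4 PHE-treated near-term arrays, ZFP36 differed by 8.05 on probe A and 4.88 on probe B; that untreated array was replicate 4, the one with the lowest 75th percentile of all (124.3). On slide 3, with 2 untreated and 4 PHE-treated adult arrays, it differed by 4.57 on probe A and 3.95 on probe B. These slide values, chosen after seeing the data, were at least as large as the values over all arrays. Treatments mostly sat in different columns of a slide, which cannot be told apart from treatment.

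ZFP36 has close relatives that bind the same kind of element, of which ZFP36L1 and ZFP36L2 could be named on the array, both through the supplementary group means alone, which makes their calls no independent evidence. ZFP36L1 had levels from -6.73 to -4.71 on the untreated near-term arrays and from -3.87 to -0.87 with PHE. In the adult it had levels from -8.20 to -4.33 untreated and from -3.65 to -2.73 with PHE. Its treated arrays lay above its untreated arrays at both ages, and the fitted changes were 3.45 near term (adjusted p = 0.000202) and 3.63 in the adult (adjusted p = 0.0005). As 1 of 4 untreated arrays was above background at each of these ages, the baseline is near background, and ZFP36L1 was tested through the PHE group alone, where it had to be high, so these values are a description. With normexp correction the near-term value was -0.17. The signal of ZFP36L1 did not allow a test in the newborn, nor in the premature fetus, where 3 of 4 PHE arrays and 0 of 4 untreated arrays were above background (at least 2.31-fold higher). ZFP36L2 was fitted 2.78 higher near term (adjusted p = 0.00191), with treated and untreated arrays overlapping. As 3 of 4 untreated arrays were above background there, it was tested through the PHE group alone, so this value too is a description. ZFP36L2 had no call in the premature fetus (1.38, adjusted p = 0.155), the newborn (0.78, adjusted p = 0.557) or the adult (1.89, adjusted p = 0.136). It was called in the adult without untreated adult replicate 3 (adjusted p = 0.00796).

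Among the mRNAs that ZFP36 is known to destabilize, the cytokines and chemokines form the largest group. Of 23 such targets listed, 17 could be named on the array, 4 of them by group means alone, and IL2, IL3, IL12B and IFNG were too dim to be tested at any age. Where ZFP36 rose, these targets were mostly higher too: 13 of 13 tested were called higher in the premature fetus, against 9.1% of all probes tested, and 12 of 13 in the newborn, against 5.91%. Near term, 8 of 10 were called higher, against 17.7%, and in the adult 4 of 5, against 3.01%. By limma, 0 were called lower at each age, and 0 were lower at an unadjusted p under 0.05. The median change of the targets tested was 5.71, 3.60, 5.34 and 3.49 on the log2 scale in the premature, near-term, newborn and adult groups, against -0.09, -0.08, -0.08 and -0.04 over all probes tested. With the targets that had no untreated array above background set to their lower bound, the newborn median was 4.88 and the others were as before. The targets tested are those bright enough in at least 1 of the groups compared: 5, 3, 4 and 2 of the 17 were above background on all untreated arrays, and 13, 10, 13 and 5 on all PHE arrays, at the ages in that order. Targets that passed through the PHE group alone had to be high in it, so these counts and medians are a description of the list. Among targets above background on all arrays of both groups, 5 of 5, 2 of 3, 3 of 4 and 1 of 2 were called higher. No share of all probes under that filter is given, so these counts too are a description of the list. Those tested without a call were IL10 (1.34, adjusted p = 0.173) and CXCL1 (-0.11, adjusted p = 0.809) near term, CXCL10 in the newborn (-0.83, adjusted p = 0.640) and CXCL1 in the adult (0.73, adjusted p = 0.257). Without near-term PHE replicate 1 the near-term count was 8 of 11, against 21.6% of all probes. With the adjusted t-test of the methods 0 were called near term and 0 in the adult, with slide as a block 3 near term, and with only the arrays compared in the fit 1 in the adult. With normexp correction, near-term IL1A and IL10 and premature CSF3 turned to -0.19, -0.90 and -0.09.

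**Figure D3:**
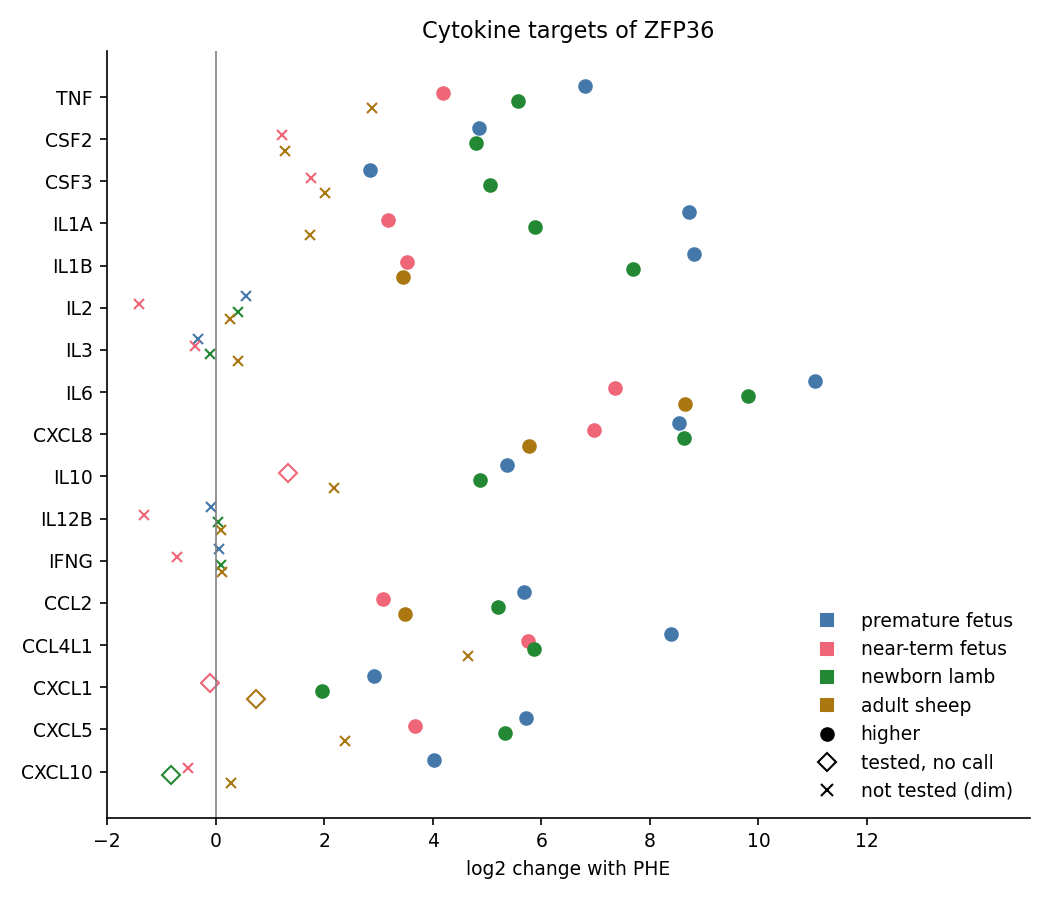
Fitted change with PHE (log2 scale) of each of the 17 cytokine targets of ZFP36 at each age: filled circles are called higher, diamonds were tested with no call, and crosses were too dim to test. The targets tested lie mostly to the right of 0, with medians of 5.71, 3.60, 5.34 and 3.49.

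IL6, a cytokine whose mRNA ZFP36 binds, was at background on all untreated premature arrays and bright on the treated ones, with levels of -6.47, -6.18, -6.19 and -5.23 untreated and 4.71, 5.68, 4.98 and 4.73 with PHE. Near term it had -6.73, -4.82, -4.82 and -3.26 untreated, and 2.81, 1.54, 1.79 and 3.68 with PHE. In the newborn it had -6.76, -5.49, -6.10 and -5.98 untreated and 3.40, 3.82, 3.89 and 3.80 with PHE. The treatments were far apart at these ages, and IL6 was above background on just 1 untreated array among them, near term. In the adult the levels were -7.47, -7.34, -8.75 and -6.94 untreated, and 1.67, -1.76, 1.26 and 2.92 with PHE. Adult PHE replicate 2 was low among the treated arrays for IL6, while ZFP36 probe B on that array was at 6.39, near its group's middle. As IL6 was at background on all other untreated arrays, its rise is given as a lower bound: at least 1123-fold for the premature group, at least 402-fold for the newborn group and at least 171-fold for the adult group. Near term the fitted log2 change was 7.36 (adjusted p = 1.95e-08). As 1 of 4 untreated arrays was above background there, its size too rests on a baseline near background. IL6 was tested there through the PHE group alone, where it had to be high, so this value is a description.

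TNF, the first known target of ZFP36, had levels of -5.25, -6.54, -5.35 and -5.75 in the untreated premature fetus and 1.12, 1.07, 2.04 and 0.13 with PHE. Near term it had -4.18, -3.18, -3.87 and -1.83 untreated, and -0.07, 0.59, 1.82 and 1.35 with PHE. In the newborn it had -7.37, -5.39, -5.32 and -6.65 untreated, and -0.66, 0.29, -0.43 and -1.66 with PHE. TNF did not overlap between treatments at these 3 ages. It rose by 6.81 in the premature fetus (adjusted p = 3.21e-07), fitted against untreated arrays of which 1 of 4 was above background. Near term it rose by 4.19 (adjusted p = 0.000183), where 3 of 4 were, and in the newborn at least 19.9-fold. TNF was tested at these ages through the PHE group alone, where it had to be high, so these values are a description. In the adult it had -6.00, -5.67, -5.09 and -5.76 untreated, and -1.65, -6.31, -2.04 and -1.01 with PHE. There replicate 2 with PHE was as low as the untreated arrays, which was not so for IL6, and TNF was not tested because 3 of 4 PHE arrays were above background. In the premature, near-term, newborn and adult groups, the interleukin IL1B rose by 8.82, 3.53, 7.69 and 3.45. The chemokine CXCL8 rose by 8.53, 6.96, 8.63 and 5.77 in the same order. With 1 array left out at a time, the adult change ran from 2.62 to 4.35 for IL1B and from 4.77 to 6.98 for CXCL8. Some of these sizes are fitted against a baseline near background: IL1B was above it on 2 of 4 untreated arrays in the premature fetus and the newborn, and CXCL8 on 3 of 4 near term and in the newborn and 2 of 4 in the adult.

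Leukocytes make many of these cytokines, so their markers are given beside them. Of 11 leukocyte markers listed, 7 could be named (CD14, CD68, ITGAM, ITGB2, CD3E, LCP1 and CD74), 4 of them by group means alone. PTPRC, the defining marker of leukocytes, was not among the 7. Called higher were 1 of 6 tested in the premature fetus (LCP1), 1 of 6 near term, 1 of 4 in the newborn and 1 of 4 in the adult (CD68 at each of these), against 9.1%, 17.7%, 5.91% and 3.01% of all probes, with median changes of 0.95, -0.97, 0.81 and 0.66. Their summed level, as a multiple of the array's 75th percentile, had a median of 2.55 untreated and 4.61 with PHE in the premature fetus, 4.31 and 2.88 near term, 3.15 and 5.80 in the newborn and 0.98 and 2.17 in the adult. LCP1 was above background on 1 of 4 untreated premature arrays, so it was tested there through the PHE group alone. CD68 had no premature call (0.91, adjusted p = 0.0683) but was called without adult PHE replicate 1 or 2 or near-term PHE replicate 4 (adjusted p from 0.0276 to 0.0443). By limma 0 were called lower; near-term CD74 was at -1.49 with an unadjusted p under 0.05, and was called lower without near-term PHE replicate 1 (-1.77, adjusted p = 0.0446). The CD68 call was lost without any of 4 near-term arrays (adjusted p up to 0.125) and, in the adult, without any of 7 of the 8 adult arrays (up to 0.25) or untreated premature replicate 3 or 4 (0.0503 and 0.0507), and with normexp near-term CD68 was at -0.09. By the median over arrays CD14 gave the highest signal of them in each group, which is a probe signal and not an amount of RNA. The median of the sum was thus higher with PHE at 3 ages and lower near term, and the part of these cells in the ZFP36 and cytokine results was not tested.

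The relation between ZFP36 and its cytokine targets was then followed array by array. On PHE arrays, ZFP36 fell into separate clusters by scan day, 2.93 to 4.85 on probe B on day 2 and 5.37 to 7.02 on day 1, so no pooled correlation is given. Over the 8 PHE arrays of the premature fetus and newborn lamb, ZFP36 was higher where most targets were higher: r was positive for 11 of 13 targets, with a median of 0.70 (median rho 0.69) and a range from -0.60 for CSF3 to 0.78 for IL6. In an exact permutation test (two-sided), 7 of 13 targets had an unadjusted p under 0.05 and 0 of 13 after adjustment over the 13. The smallest adjusted p was 0.0838. No share of all probes is given for these 8 arrays, so these counts are a description of the list. IL6 had r = 0.78 (exact p = 0.019, adjusted 0.0838) and rho = 0.714 (exact p = 0.0576, adjusted 0.125). TNF had r = 0.721 (exact p = 0.0418, adjusted 0.0838) and rho = 0.833 (exact p = 0.0154, adjusted 0.125). Without the 2 arrays farthest from the median of ZFP36, r was 0.697 for IL6 and 0.692 for TNF, and the median over the 13 targets was 0.53.

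**Figure D4:**
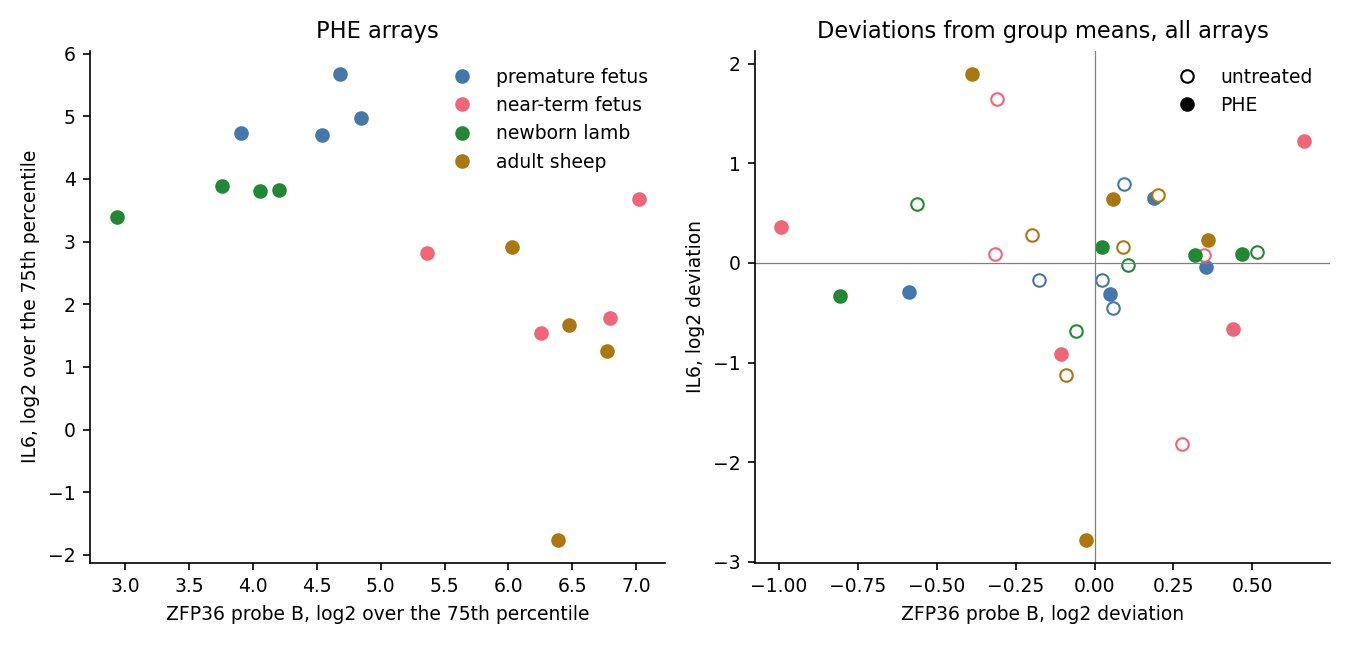
Level of IL6 against level of ZFP36 on probe B (both log2 of intensity over the array's 75th percentile) on the 16 PHE arrays by age (left), and deviations of both from their group means on all 32 arrays in the same colours (right). On the left, the near-term and adult arrays (day 1) lie to the right of the premature and newborn arrays (day 2), over which r is 0.78.

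Part of this relation may lie between the ages. On probe B the PHE mean of ZFP36 was 4.49 in the premature fetus and 3.74 in the newborn. The arrays of these groups overlapped, and the difference was not called. Taken as deviations from the mean of each age on the same 8 arrays, the median r between ZFP36 and the 13 targets was 0.44 (median rho 0.21), with 10 of 13 positive and the smallest exact p at 0.0972 (adjusted 0.603 or more). Without the 2 farthest arrays that median was -0.12. Leaving them out also narrows the range of ZFP36, so this value cannot tell what the relation within ages rested on. Over the 8 PHE arrays of the near-term fetus and adult, where 5 targets could be followed, r with ZFP36 on probe B ran from -0.41 to -0.02, with a median of -0.09 (median rho 0.05, smallest exact p = 0.317, adjusted 0.96). On probe A 4 of the 5 were positive with a median of 0.17, and with scaling to the median the probe B median was -0.51, with 0 passing in either case. Over all 32 arrays, as deviations from group means, r with ZFP36 ran from -0.29 to 0.11 over the 13 targets. The median was -0.05 (median rho 0.03, smallest permutation p = 0.185, adjusted 0.951 or more). Of the 17 named targets, 5, 3, 4 and 2 were above background on all untreated arrays, at the ages in order. These values therefore cannot decide whether targets at background follow ZFP36. Over the 16 PHE arrays, also as deviations from group means, the median was 0.04 (median rho 0.17, smallest permutation p = 0.212, adjusted 0.948 or more). There 5 of the 17 were above background on all adult arrays, so the same limit holds in part. In the main fit, no relation of ZFP36 to a cytokine target from array to array thus passed the adjusted threshold, by r or by rho. With normexp correction, 5 of 13 targets passed by r on the day 2 arrays (TNF, IL1A, IL6, IL10 and CCL4L1, smallest adjusted permutation p = 0.0444) and 3 by rho. Those are levels pooled over the premature and newborn ages. As deviations from the mean of each age, with the same correction, 0 of 13 passed (smallest exact p = 0.0573, adjusted 0.502 or more). With probe A, 0 passed by r and 1 by rho. No share of all probes stands beside these counts either.

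**Figure D5:**
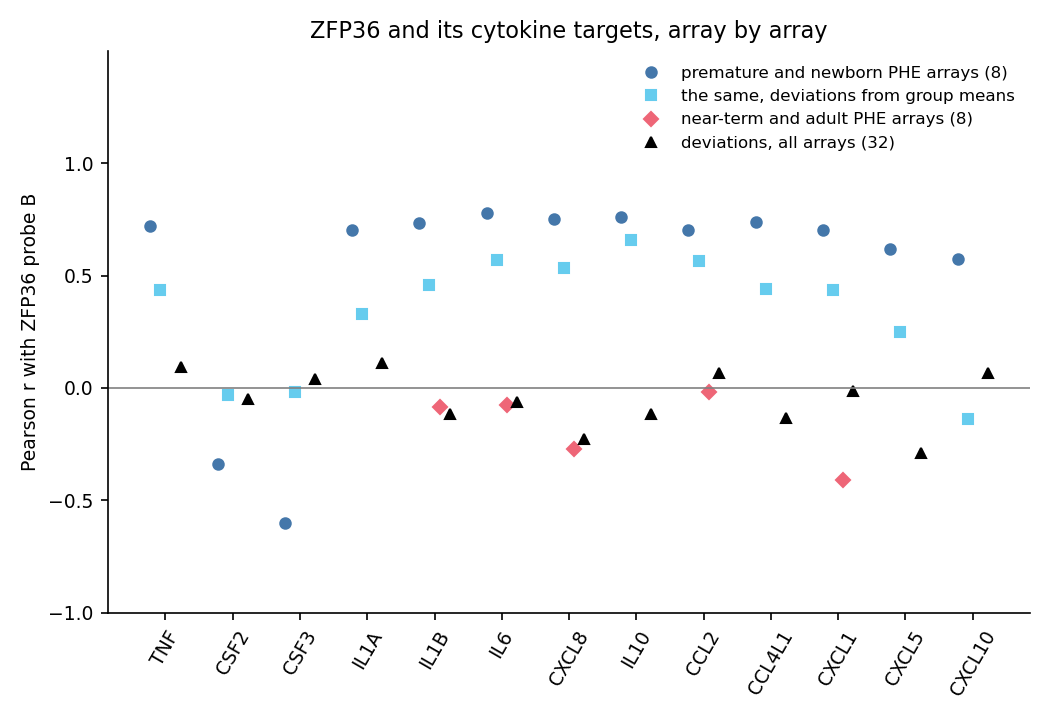
Pearson's r between ZFP36 and each cytokine target over the PHE arrays of each scan day, and as deviations from group means over the 8 premature and newborn PHE arrays and over all 32 arrays. On day 2, 11 of 13 targets lie above 0. The deviations over 32 arrays lie between -0.29 and 0.11, with most targets not above background on all untreated arrays.

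ZFP36 also acts on mRNAs outside the cytokines, among them early response and growth genes. Of 21 such targets listed, 14 could be named, 9 of them by group means alone. That is from a table of genes the study had picked on these samples, so their calls are no independent evidence. The same holds for the genes so named in the lists that follow, for the 4 cytokines and for the 4 leukocyte markers. Called higher were 12 of 14 tested in the premature fetus, 10 of 12 near term, 9 of 14 in the newborn and 9 of 12 in the adult, against 9.1%, 17.7%, 5.91% and 3.01% of all probes, with 0 lower at each and 0 at an unadjusted p under 0.05. Their median changes were 3.11, 2.85, 2.15 and 2.15. Some were tested through the PHE group alone and so had to be high in it (PLAUR in the premature fetus, PLAUR and HIF1A near term, PLAU and PLAUR in the newborn and VEGFA in the adult), which makes these counts and medians a description of the list. PTGS2, which makes prostaglandins, rose by 5.80, 5.49, 5.10 and 4.31, and MYC by 4.22, 4.17, 4.05 and 5.06, at the ages in the same order. FOS had changes of 4.12, 7.55, 2.29 and 5.85, with no call in the newborn (adjusted p = 0.0654), the age at which ZFP36 itself changed least. FOS was called there without untreated replicate 4 (adjusted p = 0.0212) or PHE replicate 1 (adjusted p = 0.0429). Over all omissions of 1 array, its newborn change ran from 1.334 to 2.975.

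The enzymes and adaptors through which ZFP36 acts were sparsely represented: 9 of 37 genes of the decay machinery could be named, 8 by group means alone, and 0 of 7 other proteins that bind AU-rich elements. Of the 9, the number called higher was 4 in the premature fetus, 4 near term, 4 in the newborn and 1 in the adult, against 9.1%, 17.7%, 5.91% and 3.01% of all probes. Called lower were 4, 3, 3 and 1, against 8.48%, 18.2%, 5.18% and 0.835% of all probes called lower, and the medians were 0.70, 0.70, 0.15 and 0.09. TOB2, 1 of the 4 called higher near term, was above background on 2 of 4 untreated arrays there. It was thus tested through the PHE group alone, where it had to be high. PABPC1, which binds the poly(A) tail, lost its premature call without any of 23 of the 32 arrays (0.64 to 0.74). It lost its newborn call without any of 6 newborn arrays (adjusted p from 0.0537 to 0.146). TOB1 lost its newborn call without untreated newborn replicate 3 (adjusted p = 0.0517) or newborn PHE replicate 3 (adjusted p = 0.0501). Both are among the 6 arrays that ended the PABPC1 call. Without near-term PHE replicate 1 the adult counts were 2 higher and 2 lower. BTG2, an adaptor of the CCR4-NOT deadenylase, rose by 4.96, 5.72, 4.15 and 6.26. CNOT8, a catalytic subunit of that complex, changed the other way from ZFP36 at each age, by -0.95, -0.79, -1.01 and -0.94. That call was lost without near-term PHE replicate 2 (adjusted p = 0.0511) and, in the adult, without untreated replicate 1, 2 or 4 or PHE replicate 1 (adjusted p up to 0.143).

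Upstream of ZFP36, 8 of 16 genes of the p38 and MK2 pathway could be named, 6 by group means alone. Called higher were 4 of 8, 5 of 7, 1 of 8 and 1 of 8 tested in the premature, near-term, newborn and adult groups, against 9.1%, 17.7%, 5.91% and 3.01% of all probes, with medians of 0.98, 1.09, 0.40 and 0.20, and 1 was called lower at each age, against 8.48%, 18.2%, 5.18% and 0.835% of all probes called lower. In the newborn and adult each count rests on 1 gene. MAP2K3, also of this list, was called higher in the adult without adult PHE replicate 2 (1.07, adjusted p = 0.0233). Its near-term call was lost without untreated near-term replicate 2 (0.73, adjusted p = 0.0512). The gene called lower was MAPK14, the p38 kinase itself, at -1.23, -0.80, -1.09 and -0.77, with the adult call lost without any of 7 of the 8 adult arrays (adjusted p up to 0.141) and the near-term call without PHE replicate 2 (-0.55). MAPKAPK2, the kinase that phosphorylates ZFP36, rose by 1.37 in the premature fetus and 1.31 near term, and had no call in the newborn (0.53, adjusted p = 0.0668) or the adult (0.17, adjusted p = 0.811). DUSP1, a phosphatase that switches p38 off and a target of ZFP36, rose by 2.11, 3.34 and 2.07 in the premature, near-term and adult groups and had no call in the newborn (-0.17, adjusted p = 0.904).

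Of 2086 genes compared over the 32 arrays, those with levels most like ZFP36 on probe B were NR4A1 (r = 0.969), EGR1 (0.962), BTG2 (0.956), GADD45B (0.955) and JUNB (0.952), described without a test over arrays of both treatments. NR4A1, EGR1 and JUNB are early response transcription factors. As deviations from group means, the genes most like ZFP36 were BTG2 (r = 0.749), JUN (0.672) and EGR1 (0.622), so BTG2 and EGR1 were near it in both. NR4A1, BTG2, GADD45B and JUN were named by group means alone. NR4A1 changed by 6.21, 7.46, 3.51 and 6.75 at the ages in order.

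Markers of other cells were looked at beside ZFP36. Of 8 smooth muscle markers, CNN1 alone could be named, bright in all groups, with no call (-0.27, -0.68, -0.21 and 0.12), though without near-term PHE replicate 1 it was called lower near term (-1.02). For endothelium 2 of 7 markers could be named, and TIE1 rose near term by 2.02, fitted against untreated arrays of which 1 of 4 was above background, so it was tested through the PHE group alone. KDR had no call near term (0.94, adjusted p = 0.129), and without near-term PHE replicate 1 both were called higher at that age, KDR at 1.26 (adjusted p = 0.0445) and TIE1 at 1.97 (adjusted p = 0.0166). For fibroblasts 4 of 6 could be named, of which 1 was called higher in the premature fetus (COL1A2), 3 near term (COL1A1, COL1A2 and COL3A1) and 0 in the newborn and adult, against 9.1%, 17.7%, 5.91% and 3.01% of all probes. The other member, DCN, was at -0.47 in the premature fetus and -0.31 near term, with no call at any age. Of HBB for blood, 2 of 3 fat markers and 3 of 5 brain markers, none was called at an age where it could be tested; AQP4 could be tested at no age, and HBB and MBP not in the adult, FABP4 not in the premature fetus, and PLIN1 and GFAP not in the newborn. The collagen rise near term coincides with the largest rise of ZFP36, and its part in that result was not tested.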

How the data were processed

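RNA of 32 samples of MCA was measured on single-colour Agilent sheep arrays. The deposited values are background-subtracted and detrended intensity made, per the file headers, by version 9.5.3.1 of Agilent Feature Extraction, not scaled between arrays, and the deposited raw spot means and local background are also intensity; the deposited matrix equals the processed intensity. Here each processed value was taken as log2 of its ratio to the 75th percentile of non-control spots on its array. Probes were named by accession, by the array file, or by group means within 0.1% of those in the supplementary table. The premature means, printed with fewer digits, were instead matched within their rounding, together with the fold. Near-term means matched with PHE replicate 1 left out. Naming by group means gave the same name for 60 of 65 probes with an accession name and 75 of 89 with a file name, and a shifted table gave 65, 3, 4 and 1 false matches for 1269, 1106, 1016 and 438 genes listed in the premature, near-term, newborn and adult groups. A linear model with 8 group means was fitted to all 15008 probes with limma 3.58.1 in R 4.3.3, tested where a probe stood well above background throughout 1 or more of the groups compared, with two-sided p adjusted by Benjamini-Hochberg over all of them; a call needs adjusted p under 0.05 and 1.5-fold. A list counts 1 probe a gene, that with the highest mean signal (for ZFP36, probe B). A gene with no untreated array above background gets a lower bound from its untreated background level. Single values were tested by exact permutation, and correlations by exact permutation over 8 arrays or 100000 resamples. Other steps used scipy 1.17.1, pandas 2.3.3 and numpy 2.4.6 in Python 3.11.15, and figures matplotlib 3.10.9. Named genes were the ZFP36 family, the cytokine targets, and 2 to 4 examples of each other list, and the genes most like ZFP36, 5 over values and 3 over deviations. The members and lists were chosen with earlier results of these data known. The steps were tested on simulated data. Alternatives changed the background correction (normexp), scaling, floor, filter, probe choice, arrays fitted, weights, slide, pairing, call rule, test and source of values, and left out each array in turn.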

Additional observations from a re-analysis of the deposited data

Results flagged for a closer look

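Among 78 groups of 4 arrays checked for an array far from the others, 1 was flagged, where chance flags about 1 in 20 groups. For IL6 in the newborn lamb with PHE, replicate 1 was low, at 3.395, while the other 3 arrays lay between 3.804 and 3.887.

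The PHE effect on ZFP36 differed between ages by the test of the difference itself in 4 cases. For newborn minus near-term, the difference was -4.292 on probe A (adjusted p = 0.000795) and -2.801 on probe B (adjusted p = 0.000416). For adult minus near-term it was -3.211 on probe A (adjusted p = 0.00796), and for adult minus newborn 2.129 on probe B (adjusted p = 0.0445). The adult minus newborn call was lost with the replicate block (adjusted p = 0.13) and without any of 22 of the 32 arrays. The adult minus near-term call was lost when only the arrays compared were fitted (adjusted p = 0.168). The adjusted t-test of the methods ended all 4 calls.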

How the results depend on the processing

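Of 760 values that answer a comparison under the alternatives, array omissions aside, 685 were the same as in the main setting. For changes this means the same direction and side of the threshold, and for counts and within-slide values a value close to the main one. The PHE effects on ZFP36 kept their direction and side of the threshold in all alternatives but the adjusted t-test of the methods. Where a value changed, the cause was not tested. Probe B is meant unless probe A is named; values are log2, with adjusted p in brackets.

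Adjusted t-test of the methods, calls lost: near-term effect 4.57 (0.0703), on probe A 7.26 (0.0703); adult effect on probe A 4.04 (0.0815); effect differences newborn minus near-term -2.80 (0.0782), on probe A -4.29 (0.092), adult minus near-term on probe A -3.21 (0.277), adult minus newborn 2.13 (0.283); untreated probe A near-term minus premature 1.77 (0.0547), newborn minus premature 2.40 (0.0561); PHE-treated probe A near-term minus premature 2.56 (0.0701). It called 0 cytokine targets near term and 0 in the adult, where limma called 8 and 4.

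Unadjusted, calls gained with the t-test of the methods and with limma: effect differences near-term minus premature 1.42, newborn minus premature -1.39 and on probe A -3.51, adult minus premature on probe A -2.42; untreated adult minus near-term 0.73; PHE-treated newborn minus premature on probe A -1.10. The t-test also gained adult minus premature 0.74, and limma the PHE-treated newborn minus premature -0.76.

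Normexp background correction gained the effect difference near-term minus premature 1.81 (0.0225) and untreated adult minus near-term 1.21 (0.00119). It lost untreated probe A near-term minus premature 1.36 (0.0574) and newborn minus premature 1.30 (0.134), and the probe difference in the premature fetus, 1.93 (exact p = 0.0571, not adjusted). It turned untreated probe A newborn minus near-term to -0.060, CSF3 premature to -0.093, and near term IL1A to -0.19, IL10 to -0.90, CXCL1 to 0.58, ZFP36L1 to -0.17 and CD68 to -0.093. Array by array on day 2, 5 targets passed as levels over both ages and 0 as deviations from group means.

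Quantile normalization lost the effect difference adult minus newborn 2.17 (0.0811), untreated probe A near-term minus premature 1.53 (0.0564) and PHE-treated probe A adult minus premature 1.35 (0.0831). It turned PHE-treated adult minus near-term to -0.063, the adult probe difference to -0.16 and near-term CXCL1 to 0.19.

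Array weights gained effect differences newborn minus premature -1.39 (0.0196), on probe A -3.40 (0.000127), adult minus premature on probe A -2.12 (0.014), untreated adult minus newborn 0.67 (0.0289), PHE-treated newborn minus premature -0.83 (0.00351), on probe A -1.17 (0.00563). They turned untreated newborn minus near-term to -0.11 and PHE-treated adult minus near-term to -0.018.

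The mean of both probes turned adult minus premature to -0.84 and PHE-treated adult minus near-term to -0.35, gained adult minus near-term -1.94 (0.0268) and untreated near-term minus premature 1.11 (0.0208), newborn minus premature 1.51 (0.00954), adult minus near-term 1.59 (0.00149) and adult minus newborn 1.19 (0.011), and lost adult minus newborn 1.61 (0.553).

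Fitting only the arrays compared gained probe A newborn minus premature -3.51 (0.0168), adult minus premature -2.42 (0.0137) and PHE-treated newborn minus premature -1.10 (0.0453), and lost adult minus near-term -3.21 (0.168); 1 adult cytokine target was called.

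Median scaling lost adult minus newborn 2.07 (0.19) and gained untreated adult minus near-term 1.27 (0.00597) and adult minus newborn 1.16 (0.0093); it moved the median of all probes in these untreated contrasts from -0.01 to 0.53 and from -0.05 to 0.56, and normexp moved that of the near-term effect from -0.08 to -0.42. Of the near-term calls 49.2% were higher, and 17.9% with normexp; of the newborn calls 53.3%, and 70.7% with median scaling and 63.7% with normexp.

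Without a filter adult minus newborn 2.13 (0.0641) was lost and untreated adult minus near-term 0.73 (0.0413) gained. With slide as a block adult minus newborn 2.21 (0.0792) was lost, PHE-treated adult minus near-term was -0.30 and 3 near-term targets were called. With the replicate block adult minus newborn 2.13 (0.13) was lost, and the probe differences 3.31, 2.69 and 1.20 (premature, near-term, newborn) had an exact p of 0.125 within pairs, the smallest that 4 pairs allow; this was added after seeing the data. The stricter filter left 5 of 5, 2 of 3, 3 of 4 and 1 of 2 targets called higher at the ages in order, with no share of all probes beside them.

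Leaving out each array in turn, the PHE effects ran 3.04 to 3.35 premature (probe A 6.30 to 6.70), 4.35 to 4.90 near-term (6.91 to 7.83), 1.58 to 2.04 newborn (2.60 to 3.31) and 3.78 to 4.03 adult (3.76 to 4.35), with no call changed. Near-term minus premature ran 1.20 to 1.75, called without near-term PHE replicate 1 or newborn PHE replicate 1. On probe A newborn minus premature ran -3.87 to -3.16, called without near-term PHE replicate 1 or untreated newborn replicate 2, and adult minus premature -2.71 to -2.12, called without near-term PHE replicate 1. Adult minus newborn ran 1.86 to 2.32, kept without untreated newborn replicate 2, newborn PHE 2, premature PHE 3 or 4, adult PHE 4, untreated near-term 3 or 4, or near-term PHE 1, 3 or 4. Untreated adult minus near-term ran 0.63 to 0.85, called without untreated newborn 2 or 4, newborn PHE 1, premature PHE 4, untreated near-term 1 or 3, or near-term PHE 1 or 4. PHE-treated adult minus near-term ran -0.27 to 0.28, below 0 without near-term PHE replicate 1 or adult PHE replicate 3, and on probe A -1.33 to -0.41, called without near-term PHE replicate 1. Near-term CXCL1 ran -0.38 to 0.19 and newborn DUSP1 -0.50 to 0.01. Cytokine targets called were 12 to 13, 8 to 9, 12 and 4 to 6. Signal over background limited which targets could be tested.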
